A study of Mus musculus with 12 samples.

Results

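The genes described here are 161 genes whose transcripts were less abundant after combined IFNγ and LPS treatment in both STHdhQ7 and STHdhQ111 cells. They were chosen by the measured values themselves: protein-coding genes with a mean of at least 2 TPM (a transcript level scaled for transcript length and library total) in both nontreated groups, and a treated to nontreated ratio of mean TPM + 0.5 of at most 0.6 in each line. Of the 29428 genes of the table, 9701 were protein-coding and reached 2 TPM in both nontreated groups, 404 of these met the ratio in STHdhQ7 cells, 853 met it in STHdhQ111 cells and 173 met it in both. Names starting with Col, Itg, Mmp, Adamts, Pcdh, Cdh, Sema, Wnt or Bmp were set aside, which removed 11 collagen genes and Pcdh19 and left the 161. A gene counted as protein-coding where protein-coding was among its listed transcript types; where it had to be listed first, 140 genes met the rule. All 161 also passed the filter on low values used for testing (at least 0.5 TPM in at least 3 libraries, 16127 genes). Because the ratios chose these genes, their difference between treated and nontreated cells is given below as a description and not as a finding.

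Both lines are immortalized mouse striatal cells that carry 7 (STHdhQ7, genotype normal) or 111 (STHdhQ111) glutamine repeats in huntingtin, the protein mutated in Huntington's disease. Each genotype was represented by a single cell line, so the repeat length and any other difference between the lines cannot be told apart. Cells were either left nontreated (Q7-C and Q111-C) or exposed for 24 h to IFNγ (100 ng/mL) together with LPS (5 μg/mL), giving the groups Q7-T and Q111-T, with 3 poly(A) RNA-seq libraries in each of the 4 groups. The labels do not say whether the 3 libraries of a group came from separate cultures, though the study calls them biological replicates. The p-values therefore measure the spread between these libraries, which may be technical.

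Estimated counts summed to between 57505990 and 96417834 per library. The libraries labelled Q7-T replicate 2 and Q7-C replicate 1 stood apart from their groups, and Q111-T replicate 2 did so to a smaller extent. In Q7-T replicate 2, genes in the third with the longest transcripts lay at a median of -1.07 (log2) against their group, and those in the third with the shortest transcripts at -0.51. Of the 161 genes, 133 had their lowest Q7-T value in that library, 120 had their lowest Q7-C value in Q7-C replicate 1 and 112 had their lowest Q111-T value in Q111-T replicate 2. Without Q7-T replicate 2 the same rule chose 109 genes, of which 89 were among the 161, and without Q7-C replicate 1 it chose 228, of which 148 were. With both libraries left out it chose 127 genes, 119 of them shared. The TPM scale itself moved the median of all genes tested by -0.14 (log2) in Q7-T vs. Q7-C and by -0.09 in Q111-T vs. Q111-C, where edgeR's scaling gave medians of 0.00328 and -0.00497. After the libraries were rescaled by the median of gene ratios, 99 genes met the rule, all of them among the 161.

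The label describes a striatal neuronal line. Of 9 neuronal markers 3 exceeded 1 TPM in any group, of 7 medium spiny neuron markers 2 did, and of the oligodendrocyte and endothelial markers 0 of 5 and 0 of 6 did. Of 12 mesenchymal markers 10 exceeded 1 TPM, and their summed level was 5794 to 6155 TPM in Q7-C, 4410 to 4628 in Q7-T, 5875 to 6072 in Q111-C and 2344 to 2652 in Q111-T. Single markers did not all follow the sum. In the same order of groups, Vim had means of 2493, 1848, 2462 and 1186 TPM and S100a4 of 1247, 839, 1517 and 528. Acta2 had 1670, 1583, 43.7 and 31.4, and Col1a1 had 265, 87.6, 791 and 264. Dcn, at 2.03, 12.8, 14.9 and 55.1, was higher after treatment in both lines. Pdgfrb, one of these markers, is among the 161 genes, and the part that the amount of mesenchymal transcripts has in the other values was not tested. The summed level of the neuronal markers was 94.5 to 104 TPM in Q7-C, 132 to 168 in Q7-T, 9.89 to 13.8 in Q111-C and 31.1 to 35.1 in Q111-T. Of these markers Tubb3 had means of 16.9 and 74.6 TPM in Q7-C and Q7-T and of 3.91 and 24.7 in Q111-C and Q111-T, Map2 had 7.93 and 2.13, and 5.90 and 5.61, Stmn2 had 73.5 and 78.4, and 2.00 and 2.41, and the other 6 were near 0. In the same order of groups, the sum of the astrocyte markers (4 of 8 above 1 TPM) was 22.5 to 40.4, 16.9 to 43.1, 76.3 to 92.1 and 73.9 to 89.2 TPM, most of it Gja1. That of the neural progenitor markers (4 of 6) was 75.9 to 128, 36.7 to 104, 12.4 to 16.3 and 10.7 to 14.5 TPM. For the microglia and macrophage markers (2 of 7, with Tmem119 among the 161 genes) it was 17.8 to 20.6, 11.9 to 18.2, 31.9 to 37.0 and 46.0 to 62.5 TPM. Here Cd68 had means of 7.09, 11.7, 15.2 and 48.8 TPM and Tmem119 of 12.3, 3.14, 18.7 and 5.13, in opposite directions with treatment, and the other 5 were near 0. The part of these transcripts in the line comparisons was not tested either. In bulk RNA, fewer cells that express a gene and less RNA per cell cannot be told apart.

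IFNγ acts through its receptor and JAK kinases, and LPS acts through TLR4 and NF-κB. Both are best known for the genes they switch on, but IFNγ is also known to lower collagen synthesis in fibroblasts. The small leucine-rich proteoglycans and matricellular proteins described below belong to the matrix that mesenchymal cells secrete. Differentially expressed genes (DEGs) are those that changed at least 2-fold and reached an adjusted p under 0.05 (Benjamini-Hochberg) in edgeR's quasi-likelihood test over all 16127 genes. As a check of the treatment label, all 20 genes of a list of interferon and NF-κB targets were higher DEGs in both lines.

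The median of the 161 genes was 2.08-fold lower in Q7-T than in Q7-C and 2.47-fold lower in Q111-T than in Q111-C (ratios of mean TPM). The fold ranged from 1.67 to 8.04 in STHdhQ7 cells, where Lgr6, at under 0.35 TPM after treatment, had the largest, and from 1.67 to 56.4 in STHdhQ111 cells, where Omd had the largest apart from Gm20390, listed at 0 TPM after treatment. By the ratio that the rule used, of mean TPM + 0.5, Peg10 had the lowest value in STHdhQ7 cells, 0.145, and by edgeR Spon2 had, at -2.74 on the log2 scale. The ratio was smaller in STHdhQ111 cells for 110 genes and smaller in STHdhQ7 cells for 51. It was at most 0.5 in both lines for 64 genes and at most 0.25 in both for 4. On the edgeR scale the median log2 difference of the 161 genes was -0.92 in Q7-T vs. Q7-C and -1.22 in Q111-T vs. Q111-C, beside 0.00328 and -0.00497 over all genes tested.

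**Figure D1:**
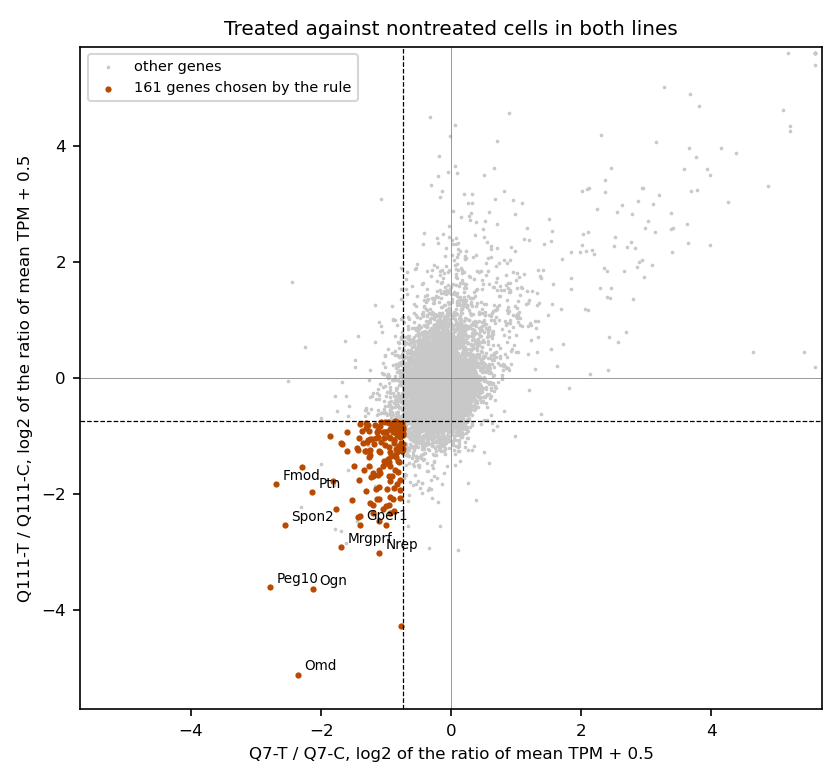
Each point is one of 9701 protein-coding genes with at least 2 TPM in both nontreated groups, placed by the log2 ratio of mean TPM + 0.5 of treated to nontreated STHdhQ7 cells (horizontal) and STHdhQ111 cells (vertical); dashed lines mark the ratio of 0.6. The 161 genes fill the lower left corner, with Omd lowest at -2.36 and -5.11, and 11 induced genes beyond 5.6 are drawn at the edge.

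As the rule fixes in part, 52 of the 161 genes were lower DEGs in Q7-T vs. Q7-C, where 1.11% of all genes tested were, and 103 were lower DEGs in Q111-T vs. Q111-C, where 2.96% were. Of these, 41 were DEGs in both lines, 11 in STHdhQ7 cells alone, 62 in STHdhQ111 cells alone and 47 in neither. Fitted on Q7-T and Q7-C alone, 24 in place of 52 were lower DEGs, and 0.484% in place of 1.11% of all genes tested. The split thus rests on the fit over all 12 libraries. The TPM ranges of treated and nontreated libraries did not overlap for 119 genes in STHdhQ7 cells, against 8.9% of all genes tested, and for 159 in STHdhQ111 cells, against 29.8%. At an adjusted p under 0.05 with no limit on the fold, 91 of the 161 genes passed in STHdhQ7 cells (5.35% of all in either direction) and 137 in STHdhQ111 cells (18.7%). Nothing is read from these shares, since the same contrasts chose the genes. The genes nearest the limit of 0.6 on the inside were Fig4, Kcnn1 and Cavin2 (larger ratio 0.59999, 0.599 and 0.598), and those nearest on the outside were Dpysl3, Lrrc8e and Sorbs3 (0.6005, 0.601 and 0.601).

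A measure that the choice did not use is the replicate left out of it. Chosen from the libraries numbered 1 and 2, 179 genes met the rule, and in the libraries numbered 3 the treated value was below the nontreated value for 98.9% of them in STHdhQ7 cells (70.0% of all expressed genes) and 98.3% in STHdhQ111 cells (56.0%). Chosen without the libraries numbered 1, 424 genes met the rule, and in the libraries numbered 1 the treated value was lower for 38.9% of them in STHdhQ7 cells (27%) and 96.5% in STHdhQ111 cells (51.3%). Chosen without the libraries numbered 2, 116 genes met the rule, and in the libraries numbered 2 it was lower for 76.7% in STHdhQ7 cells (81.4%) and 96.6% in STHdhQ111 cells (71.1%). Thus on the TPM scale 96.5% or more of the chosen genes were lower in STHdhQ111 cells in each replicate that had not chosen them. In STHdhQ7 cells the share depended on whether Q7-C replicate 1 or Q7-T replicate 2 was the library read. Fewer met the limit of 0.6 itself. For replicates 1, 2 and 3 these were 45.8% (7.09% of all), 81.9% (23.9%) and 76.0% (7.61%) in STHdhQ111 cells. In STHdhQ7 cells they were 11.6% (4.43%), 57.8% (55.1%) and 69.8% (7.34%). On the rescaled values the shares with a lower treated value in STHdhQ7 cells were 71.2% (47.8% of all), 57.0% (54.8%) and 98.1% (52.5%) for replicates 1, 2 and 3. In STHdhQ111 cells they were 98.6% (51.0%), 95.1% (52.5%) and 99.0% (51.3%).

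**Figure D2:**
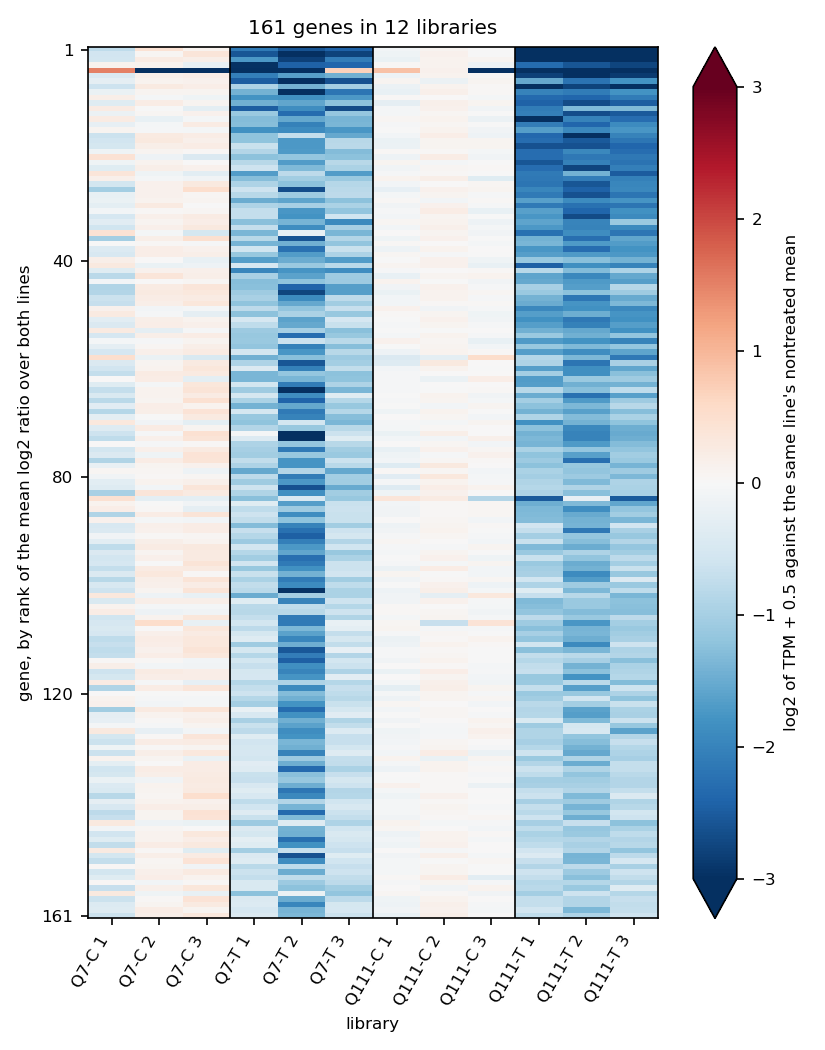
Each row is one of the 161 genes, ordered by the mean log2 ratio over both lines, and each column one library; colour gives log2 of TPM + 0.5 against the nontreated mean of the same line, cut at 3 either way. The treated columns are blue throughout in STHdhQ111 cells, while Q7-T replicate 2 is darker than the other two Q7-T libraries and Q7-C replicate 1 is pale blue for most genes.

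Of the gene lists used, the matrix list held the most of the 161 genes. Of its 73 matrix and matricellular genes, 65 were tested and 14 were among the 161: Omd, Ogn, Spon2, Fmod, Efemp1, Ccdc80, Prelp, Thbs1, Loxl4, Ccn3, Fbln5, Matn2, Sparc and Ltbp1. Of the 14, 7 were lower DEGs in STHdhQ7 cells and 10 in STHdhQ111 cells. Of the 51 tested genes of the list that the rule did not choose, 3 were lower and 3 higher DEGs in STHdhQ7 cells, and 11 were lower and 6 higher in STHdhQ111 cells. The gene annotation of the table places 13 of the 161 genes (8.07%) in the collagen-containing extracellular matrix, against 1.1% of the expressed genes, and 32 (19.9%) in the extracellular region, against 3.85%.

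Of the matrix genes, 4 encode small leucine-rich proteoglycans, which bind collagen fibrils and govern their assembly. They were grouped here after their values were seen, and the family did not move in 1 direction. Of its other tested genes on the list, decorin (Dcn) was a higher DEG in both lines, with means of 2.03 TPM in Q7-C and 12.8 in Q7-T and of 14.9 in Q111-C and 55.1 in Q111-T. Podocan (Podn) was a higher DEG in STHdhQ111 cells (1.39 and 5.16 TPM) and asporin (Aspn) a lower one (221 and 3.50 TPM), neither was a DEG in STHdhQ7 cells, and biglycan (Bgn) was a DEG in neither line. Osteomodulin (Omd, ENSMUSG00000048368, chr13:49582462-49592822, GRCm38) was measured at 4.27, 10.4 and 8.21 TPM in the 3 Q7-C libraries and at 1.36, 0.861 and 1.02 in Q7-T, and at 40.6, 45.9 and 42.6 in Q111-C and 0.416, 1.13 and 0.735 in Q111-T. The treated libraries of both lines thus ended at about the same low level from nontreated levels of 7.64 ± 3.13 and 43.0 ± 2.65 TPM (mean ± SD, n = 3), 7.06-fold and 56.4-fold lower. Osteoglycin (Ogn, chr13:49608046-49624501) lies 15.2 kb downstream on the same strand. It was measured at 35.3, 62.1 and 58.2 TPM in Q7-C and 15.3, 7.06 and 12 in Q7-T, and at 354, 434 and 427 in Q111-C and 29.2, 32.6 and 35.0 in Q111-T. Its treated STHdhQ111 libraries lay 12.5-fold below the nontreated ones and below all 3 Q7-C libraries.

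Fibromodulin (Fmod), another collagen-binding member of that family, was measured at 15.2, 20.0 and 20.1 TPM in Q7-C and 2.92, 1.82 and 2.58 in Q7-T. In STHdhQ111 cells it was measured at 2.77, 2.25 and 2.77 TPM nontreated and 0.575, 0.164 and 0.390 treated, so that nontreated STHdhQ111 cells were at the level of treated STHdhQ7 cells. Prelp, which anchors basement membranes to connective tissue, is encoded 116 kb from Fmod on chromosome 1. It was measured at 77.3, 125 and 122 TPM in Q7-C and 49.0, 33.6 and 57.0 in Q7-T, and at 8.92, 8.28 and 8.51 in Q111-C and 2.37, 2.31 and 2.27 in Q111-T. In both lines the treated and nontreated ranges of these 4 genes did not overlap.

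The promoter windows of Omd and Ogn are shown because the pair is adjacent and held 2 of the 3 smallest mean ratios of the 161 genes. The sequences are RefSeq windows of GRCm38.p6, 250 bases before to 50 bases after the start site, 5′ to 3′ on the gene's strand (both plus), at chr13:49582212-49582511 and chr13:49607765-49608064. Capitals mark matches on either strand to 8 motifs. These are TATAAA of the core promoter, CCAAT as bound by NF-Y, GGAATG for the TEAD family, TGANTCA for AP-1, the E-box CACGTG, the element TTCNNNGAA of STAT factors, the Sp1 site GGGCGG and the sterol response element TCACNCCAC.
Omd: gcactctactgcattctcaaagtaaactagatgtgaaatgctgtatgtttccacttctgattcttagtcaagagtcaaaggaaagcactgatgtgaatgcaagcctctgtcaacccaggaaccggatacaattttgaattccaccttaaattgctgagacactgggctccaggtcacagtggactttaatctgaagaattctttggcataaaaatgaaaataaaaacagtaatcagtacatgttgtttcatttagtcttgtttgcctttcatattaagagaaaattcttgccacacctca
Ogn: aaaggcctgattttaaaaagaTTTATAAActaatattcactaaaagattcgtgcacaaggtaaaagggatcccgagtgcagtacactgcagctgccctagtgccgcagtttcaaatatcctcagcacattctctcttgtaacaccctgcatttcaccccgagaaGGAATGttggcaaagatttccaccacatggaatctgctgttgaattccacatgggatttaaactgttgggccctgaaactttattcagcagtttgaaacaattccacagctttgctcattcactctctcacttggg
The Omd window held none of these letters. The Ogn window held TATAAA on both strands at 227 and 229 bases before the start, in 2 matches that overlap each other, and GGAATG at 86 bases before it. A match describes letters in a window and not a bound site.

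Of the 161 genes, 121 matched the RefSeq promoter table, with 162 windows. GGGCGG occurred in 63.0% of these windows, against 66.5% of 9964 windows of expressed genes and 35.7% of all 32851 windows. CACGTG occurred in 3 windows (1.85%), against 10.4% of the windows of expressed genes and 7.15% of all. TGANTCA occurred in 8.02%, against 4.52% and 7.81%. The shares for CCAAT were 34.6%, 38.5% and 37.4%, for TATAAA 7.41%, 6.37% and 13.6%, for GGAATG 9.88%, 11.6% and 14.7%, and for TTCNNNGAA 4.94%, 6.5% and 8.3%.

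**Figure D3:**
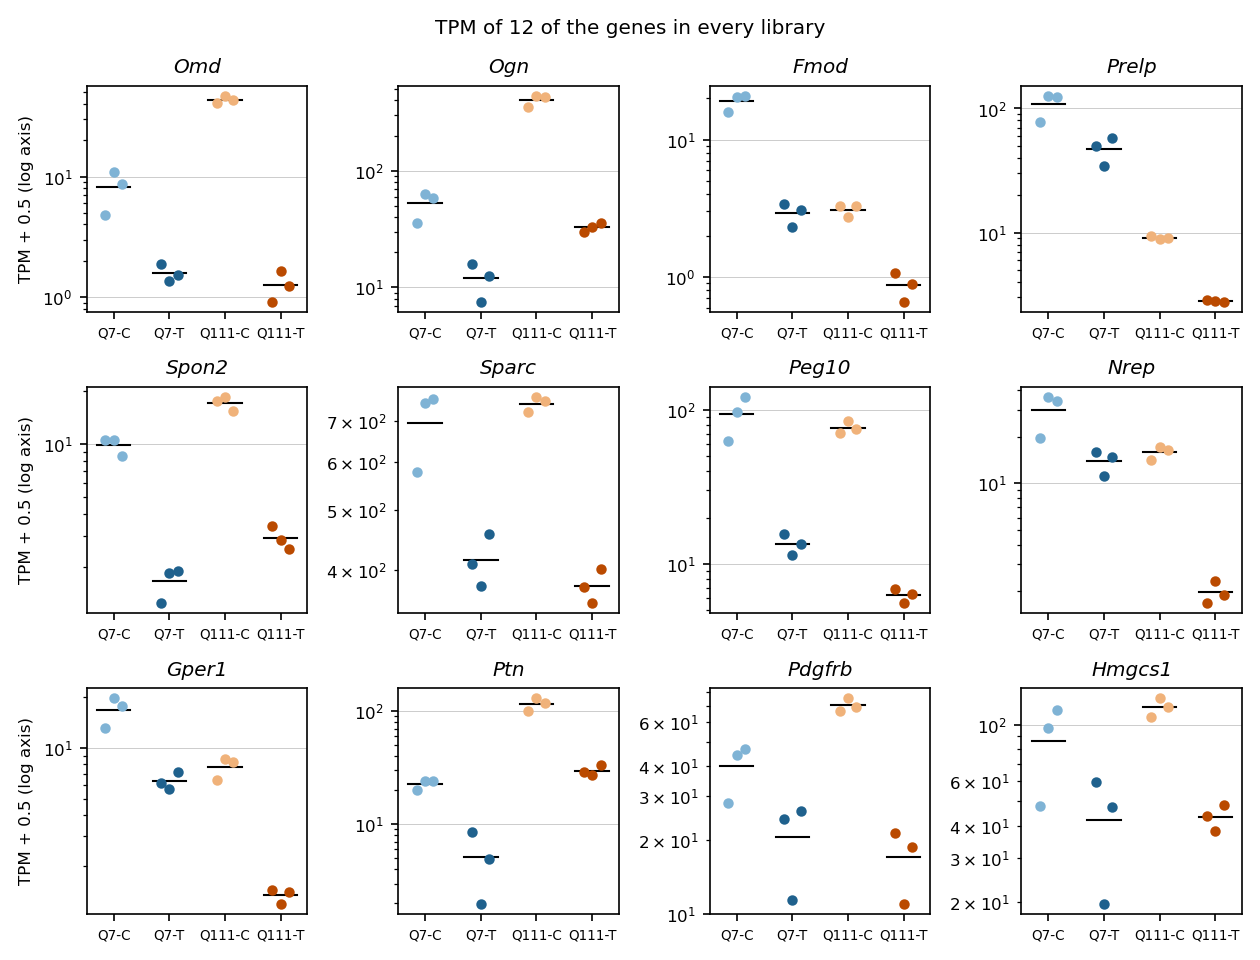
TPM + 0.5 on a log axis in each of the 12 libraries for 12 of the genes; points are libraries 1, 2 and 3 of a group from left to right and the bar is their mean. Omd ended between 0.416 and 1.36 TPM in all 6 treated libraries, whereas Nrep and Gper1 reached a lower level in the treated STHdhQ111 libraries.

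Spondin 2 (Spon2), a secreted matrix protein, was measured at 10.1, 10.1 and 8.03 TPM in Q7-C and 0.763, 1.35 and 1.42 in Q7-T, and at 17.0, 17.9 and 14.8 in Q111-C and 2.93, 2.36 and 2.04 in Q111-T. It was 7.99-fold and 6.77-fold lower, and its groups did not overlap in either line. Sparc, a collagen-binding matricellular glycoprotein, was the most abundant of the 161 genes by its mean over both nontreated groups, at 577, 746 and 758 TPM in Q7-C, 409, 376 and 458 in Q7-T, 721, 763 and 752 in Q111-C and 375, 353 and 401 in Q111-T. With 1.67-fold it was also among the genes with the smallest difference in STHdhQ7 cells. In STHdhQ111 cells it was 1.98-fold lower, beside a median of 2.47-fold, and it was a DEG in neither line. Fibulin-3 (Efemp1) was 2.01-fold and 5.88-fold lower, Ccdc80 2.00-fold and 4.73-fold, and thrombospondin 1 (Thbs1) 1.77-fold and 3.09-fold. In STHdhQ7 cells the value of Thbs1 rested on Q7-T replicate 2, at 19.6 TPM beside 186 and 124 in the other two, and its Q7 groups overlapped. Matrix Gla protein (Mgp), an inhibitor of calcification on no list, was measured at 16.2, 13.6 and 11 TPM in Q7-C, 2.05, 3.38 and 1.70 in Q7-T, 8.89, 10.2 and 8.60 in Q111-C and 1.76, 3.38 and 3.39 in Q111-T. Its treated levels were alike in both lines.

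Growth factors and their receptors followed. Pleiotrophin (Ptn), a secreted heparin-binding growth factor, was measured at 19.4, 23.8 and 23.7 TPM in Q7-C and 8.08, 1.49 and 4.49 in Q7-T, and at 98.6, 129 and 118 in Q111-C and 28.3, 26.5 and 33.1 in Q111-T. Its 3 treated STHdhQ7 libraries were spread widely but stayed below all nontreated ones. Pdgfrb, the receptor for PDGF-B, was measured at 27.6, 43.5 and 46.3 TPM in Q7-C, 23.7, 10.9 and 25.6 in Q7-T, 66.5, 74.6 and 69.0 in Q111-C and 20.7, 10.5 and 18.2 in Q111-T. In STHdhQ7 cells the margin between the groups was only that between 25.6 and 27.6 TPM. Angiopoietin 1 (Angpt1), a ligand of the Tie2 receptor, was 3.44-fold and 2.32-fold lower, and Pdgfc, a ligand of PDGF receptor α, 1.82-fold and 1.75-fold. These 4 were the members among 53 tested growth factor genes. Among the other 49, 3 were higher and 2 lower DEGs in STHdhQ7 cells and 12 were higher and 4 lower in STHdhQ111 cells. Endosialin (Cd248), a surface glycoprotein of perivascular and stromal cells on no list, was measured at 44.7, 37.6 and 36.1 TPM in Q7-C, 11.1, 10.8 and 11.7 in Q7-T, 96.7, 94.4 and 90.6 in Q111-C and 18.2, 17.8 and 21.7 in Q111-T.

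Of the 161 genes, 7 encode G protein-coupled receptors. The list of 82 tested receptor genes held Adgrl1 and Adgrl2 (latrophilins, which bind teneurins), Adgrg1 (an adhesion receptor of matrix ligands) and the R-spondin receptors Lgr4 and Lgr6, and it missed Gper1 and Mrgprf, which were added after their values were seen. The other 77 genes of the list held 10 higher and 3 lower DEGs in STHdhQ7 cells and 18 higher and 9 lower in STHdhQ111 cells. The G protein-coupled estrogen receptor Gper1 was measured at 12.7, 19.2 and 17.2 TPM in Q7-C and 5.69, 5.19 and 6.70 in Q7-T, and at 5.93, 8.08 and 7.76 in Q111-C and 0.947, 0.698 and 0.901 in Q111-T. Treated STHdhQ7 cells were thus near nontreated STHdhQ111 cells, and treated STHdhQ111 cells were 8.55-fold below their control. The orphan receptor Mrgprf was measured at 5.09, 7.84 and 8.09 TPM in Q7-C, 1.30, 1.93 and 2.25 in Q7-T, 29.0, 34.8 and 32.9 in Q111-C and 4.20, 3.41 and 3.94 in Q111-T. The ratio was smaller in STHdhQ111 cells for 3 of the 7, Gper1, Mrgprf and Adgrl2, and smaller in STHdhQ7 cells for Lgr4, Lgr6, Adgrg1 and Adgrl1. Lgr6 was measured at 1.76, 2.69 and 2.74 TPM in Q7-C and 0.252, 0.344 and 0.298 in Q7-T (8.04-fold) beside 13.3, 13.7 and 14 in Q111-C and 7.46, 5.29 and 6.98 in Q111-T (2.08-fold).

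Wnt signalling was represented by Lgr4, which raises the response to Wnt ligands, by Apcdd1, a membrane inhibitor of Wnt, and by the β-catenin partners Tcf7 and Tcf7l1. Tcf7 was measured at 24.3, 34.9 and 39.9 TPM in Q7-C, 17.1, 5.13 and 16.2 in Q7-T, 10.3, 16.9 and 13.8 in Q111-C and 6.91, 2.63 and 6.67 in Q111-T. Apcdd1 was 3.18-fold and 3.26-fold lower and Lgr4 3.46-fold and 2.28-fold, so that all 4 were lower DEGs in STHdhQ111 cells and 3 were in STHdhQ7 cells. The call of Tcf7 in STHdhQ7 cells was lost in 19 of 24 alternatives, including the fit without any 1 of the 6 STHdhQ7 libraries, and that of Tcf7l1 in STHdhQ111 cells in 9 of 24, including the fit without any 1 of the 6 STHdhQ111 libraries. They stood among 27 tested genes of the list, of which the other 23 held 1 higher DEG in STHdhQ7 cells and 3 higher and 2 lower in STHdhQ111 cells. Tcf7 overlaps the gene Gm26551 on the same strand, so its reads could be shared.

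Of 235 tested transcription factor genes of developmental families 9 were among the 161. Pparg, the nuclear receptor that drives fat cell formation, was measured at 11.8, 13.9 and 13.5 TPM in Q7-C, 6.92, 3.68 and 5.03 in Q7-T, 48.9, 49.4 and 46.0 in Q111-C and 9.54, 12.3 and 9.52 in Q111-T. Perilipin 4 (Plin4), a lipid droplet coat protein, was 2.30-fold and 6.08-fold lower. Egr3, an early-response zinc finger factor, was 3.98-fold and 2.39-fold lower, and Nab2, a co-repressor of the Egr family on no list, 1.94-fold and 2.05-fold. The forkhead factors Foxd1 and Foxc1 were 2.11-fold and 2.09-fold lower in STHdhQ7 cells and 1.97-fold and 1.89-fold in STHdhQ111 cells. Osr1, Twist2 and Tcf7l1 were also on the list, and scleraxis (Scx), a tendon factor, was among the genes on no list. Of the 9, 3 were lower DEGs in STHdhQ7 cells and 6 in STHdhQ111 cells, and the 226 other tested factors held 9 lower and 3 higher DEGs in STHdhQ7 cells and 13 lower and 27 higher in STHdhQ111 cells.

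Cholesterol synthesis was the clearest metabolic group by membership. Of 21 tested genes of cholesterol synthesis and uptake 7 were among the 161. They include Hmgcs1, which makes HMG-CoA, Idi1, which isomerises isopentenyl diphosphate, Lss, Cyp51 and Dhcr7, which build the sterol, and Insig1, which holds the sterol sensor in the endoplasmic reticulum. Hmgcs1 was measured at 47.4, 96.5 and 114 TPM in Q7-C and 59.1, 19.3 and 47.1 in Q7-T, and at 107, 127 and 116 in Q111-C and 43.3, 37.6 and 48.0 in Q111-T. Its STHdhQ7 groups overlapped, through Q7-C replicate 1, and its STHdhQ111 groups did not. Idi1, Lss, Cyp51, Dhcr7 and Insig1 were 1.86 to 2.08-fold lower in STHdhQ7 cells and 1.69 to 2.19-fold lower in STHdhQ111 cells. After rescaling of the libraries 2 of the 7 still met the rule. On the edgeR scale 21 of the 21 genes lay below 0 in STHdhQ7 cells (median -0.56) and 20 of 21 in STHdhQ111 cells (median -0.80), where 6 were lower DEGs. In STHdhQ7 cells edgeR and DESeq2 each called 0 of the 21 DEGs with the 2-fold limit, while 4 and 8 had an adjusted p under 0.05 and 8 and 10 an unadjusted p under 0.05. These counts include the 7 genes that the rule chose for being lower in both lines. Of the 14 genes of the list that it did not choose, 14 lay below 0 in STHdhQ7 cells (median -0.38) and 13 in STHdhQ111 cells (median -0.76). They held 0 and 3 lower DEGs by edgeR, where 1.11% and 2.96% of all genes tested were lower DEGs.

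**Figure D4:**
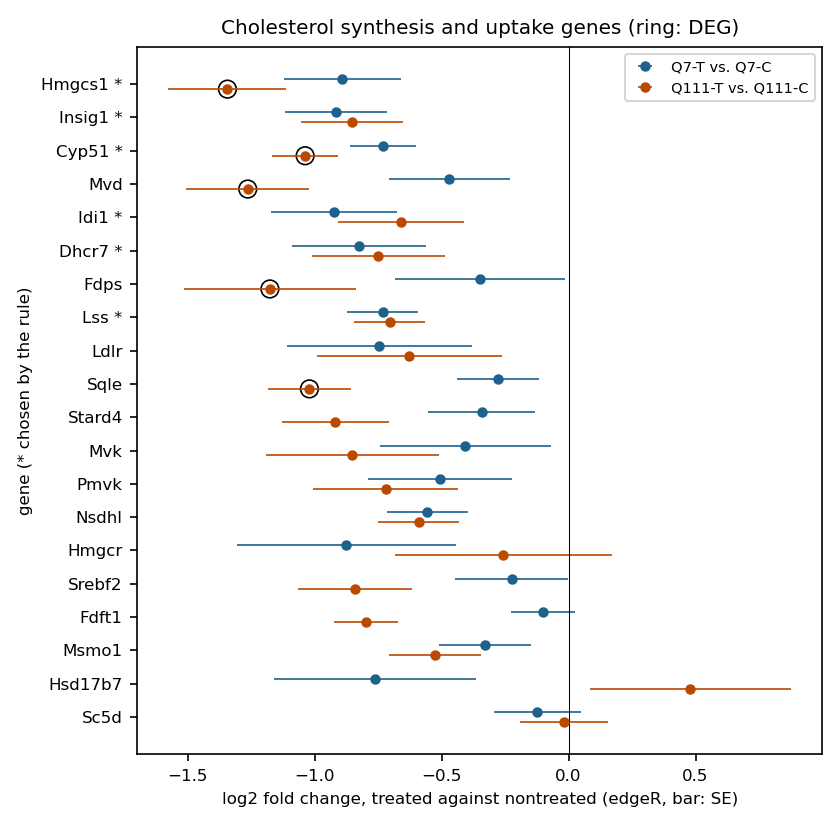
Log2 fold change of treated against nontreated cells (edgeR) with its SE for 20 of the tested cholesterol genes, STHdhQ7 in blue and STHdhQ111 in orange; a star marks the 6 of them chosen by the rule and a ring a DEG. Only orange points carry rings, 5 in all, and Hsd17b7 is the one gene above 0, at 0.48 in STHdhQ111 cells.

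The windows of Hmgcs1 and Idi1 are shown because both held repeated CCAAT boxes beside Sp1 sites, in the same format and motif set as above (both plus strand, chr13:119690101-119690400 and chr13:8885356-8885655).
Hmgcs1: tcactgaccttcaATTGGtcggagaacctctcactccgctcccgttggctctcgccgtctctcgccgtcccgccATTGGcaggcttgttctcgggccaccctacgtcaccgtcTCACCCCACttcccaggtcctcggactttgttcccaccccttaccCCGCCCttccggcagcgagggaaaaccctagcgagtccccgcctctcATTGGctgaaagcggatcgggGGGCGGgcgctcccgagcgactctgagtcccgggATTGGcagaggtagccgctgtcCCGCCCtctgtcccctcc
Idi1: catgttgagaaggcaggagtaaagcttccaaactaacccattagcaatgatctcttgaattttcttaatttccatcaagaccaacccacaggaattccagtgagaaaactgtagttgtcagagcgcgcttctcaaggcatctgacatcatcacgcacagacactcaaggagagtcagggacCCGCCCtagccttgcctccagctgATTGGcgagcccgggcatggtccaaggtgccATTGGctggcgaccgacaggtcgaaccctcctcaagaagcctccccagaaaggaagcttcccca
The Hmgcs1 window held 4 matches to CCAAT, all on the opposite strand, 3 to GGGCGG and 1 to TCACNCCAC, at 137 bases before the start. The Idi1 window held 2 matches to CCAAT and 1 to GGGCGG. The sterol motif, added after the values were seen, occurred in 3 of the 162 windows (1.85%), against 1.09% of the windows of expressed genes and 1.24% of all.

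There were 7 histone genes among the 161, a group named after its values were seen: the linker histones H1f0 and H1f2 and the core histones H2bc4, H2bc8, H2bc12, H3c8 and H4c9. All 7 had the smaller ratio in STHdhQ111 cells. H1f0, the linker histone of resting and differentiated cells, was measured at 477, 609 and 572 TPM in Q7-C, 310, 265 and 322 in Q7-T, 616, 677 and 617 in Q111-C and 146, 104 and 138 in Q111-T. Treated STHdhQ111 cells were below treated STHdhQ7 cells in every library. H2bc4 was measured at 91.6, 66.3 and 73.8 TPM in Q7-C, 30.9, 26.5 and 29.3 in Q7-T, 60.4, 63.1 and 51.1 in Q111-C and 6.88, 14 and 11.5 in Q111-T. Most core histone transcripts carry no poly(A) tail and poly(A) RNA was sequenced, so these values cover the tailed fraction. Of 31 tested cell cycle and replication genes 0 were among the 161, and 3 were higher DEGs in STHdhQ111 cells.

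Smaller groups, also named after their values were seen, covered imprinted genes, caveolae and water channels. Peg10, a paternally expressed gene derived from a retrotransposon, was measured at 62.0, 96.8 and 120 TPM in Q7-C and 15.2, 10.9 and 13.1 in Q7-T (7.12-fold), and at 69.9, 83.6 and 75.1 in Q111-C and 6.38, 5.11 and 5.91 in Q111-T (13.1-fold). It had the second smallest mean ratio of all, and its groups were far apart in both lines. Mest, another paternally expressed gene, was 3.27-fold and 5.66-fold lower and Grb10, an adaptor that restrains insulin receptor signalling, 1.89-fold and 3.22-fold. Caveolin 1 (Cav1), the coat protein of caveolae, was measured at 130, 201 and 202 TPM in Q7-C, 138, 43.8 and 115 in Q7-T, 267, 318 and 281 in Q111-C and 115, 133 and 123 in Q111-T. Its STHdhQ7 groups overlapped, and Ehd2 and Cavin2, which stabilise caveolae, were 1.92-fold and 1.96-fold lower in STHdhQ7 cells and 3.43-fold and 1.67-fold in STHdhQ111 cells. The water channels Aqp1 and Aqp5 were 1.73-fold and 2.23-fold lower in STHdhQ7 cells and 4.02-fold and 6.04-fold in STHdhQ111 cells.

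Nrep, an intracellular protein first described in regenerating nerve, was measured at 19.0, 35.6 and 33.8 TPM in Q7-C, 15.4, 10.7 and 14.3 in Q7-T, 13.6, 16.7 and 15.9 in Q111-C and 1.19, 1.83 and 1.39 in Q111-T. The treated STHdhQ111 libraries stood 10.5-fold below their control, whereas the treated STHdhQ7 libraries were 2.19-fold below theirs and close to nontreated STHdhQ111 cells. Of 39 tested axon guidance and adhesion genes 4 were among the 161: the ephrin Efna2, the Eph receptor Ephb6, the adhesion molecule L1cam and the semaphorin and VEGF co-receptor Nrp1, at 1.96 to 3.32-fold and 2.52 to 2.94-fold. The other 35 held 2 higher and 1 lower DEGs in STHdhQ7 cells and 8 DEGs in STHdhQ111 cells, all 8 higher. Cdon, a hedgehog co-receptor, the potassium channel Kcnn1 and the JNK scaffold Mapk8ip1 were the single members of their lists. Lists of 22 YAP/TEAD targets, 21 contractile and cytoskeletal genes, 13 Notch genes, 32 detoxification genes, 15 housekeeping genes and 214 solute carriers, all counted as tested, held 0 of the 161.

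The remaining 95 genes were on no list and in no group above. Their folds ranged from 1.68 to 5.71 in STHdhQ7 cells (median 2.06) and from 1.72 to 10.5 in STHdhQ111 cells (median 2.35), with 27 and 55 lower DEGs. Gelsolin (Gsn), an actin-severing protein, was measured at 285, 319 and 327 TPM in Q7-C, 214, 114 and 213 in Q7-T, 646, 697 and 646 in Q111-C and 366, 249 and 364 in Q111-T. Death-associated protein (Dap) was measured at 206, 187 and 186 TPM in Q7-C, 110, 113 and 106 in Q7-T, 514, 506 and 482 in Q111-C and 206, 232 and 211 in Q111-T. These 2 were among the most abundant of the 161, and in both the groups were apart in each line. Gm20390 had 1 of the smallest mean ratios, but it was listed at 0 TPM in 8 of 12 libraries, including all 3 of Q111-T, and it overlaps Nme1 and Nme2 on the same strand, so its reads are uncertain and no fold is given. In all, 28 of the 161 genes overlap another gene on the same strand and 53 one on the opposite strand. The libraries were stranded, but whether the counting used strand is not given in the sources used here.

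The rule did not use the contrasts between the lines. It did use the values of the same libraries, and it asked for at least 2 TPM in both nontreated groups. The shares below are of all 16127 genes tested, which were not held to that level, so an excess over them is not read as a result. In nontreated cells 32 of the 161 genes were higher DEGs in Q111-C vs. Q7-C, where 7.62% of all genes tested were, and 30 were lower DEGs, where 7.61% were. In treated cells 25 were higher DEGs in Q111-T vs. Q7-T (13.3% of all) and 52 were lower (11.2%). With no limit on the fold, 79 had an adjusted p under 0.05 by edgeR in nontreated cells (22.7% of all in either direction) and 94 in treated cells (38.4%). The TPM ranges of the lines did not overlap for 70 genes higher (38.8% of all) and 41 lower (12.6%) in Q111-C, and for 40 higher (33.9%) and 41 lower (12.5%) in Q111-T. The median log2 difference of the 161 genes was -0.13 in nontreated cells and -0.34 in treated cells, beside -0.02 and -0.03 over all genes tested. On this scale 32 of 62 DEGs of nontreated cells were higher in STHdhQ111 cells. The DEGs that limma on log2(TPM + 0.5) called itself among the 161 were 40 higher (9.23% of all genes tested) and 19 lower (4.75%) in nontreated cells. In treated cells they were 28 higher (18.2%) and 32 lower (4.81%). The TPM scale, on which the median of all genes was 0.25 and 0.30, gave 0.19 and 0.03 for the 161 genes. Of the genes, 53 were DEGs in both line comparisons, 23 higher and 30 lower in STHdhQ111 cells. No share of all genes tested is given for these counts, and nothing is read from them. Another 9 were DEGs in nontreated cells alone, all 9 higher in STHdhQ111 cells (1.66% of all genes tested), and 24 in treated cells alone, 22 of them lower (6.18%) and 2 higher (7.18%) in STHdhQ111 cells. By limma on log2(TPM + 0.5) these were 12 higher (2.6%) and 2 lower (1.89%) in nontreated cells alone, and 15, all lower (2.0%), in treated cells alone. The difference between the 2 comparisons is the interaction given below.

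Several line differences held with and without treatment. Crabp1, which binds retinoic acid in the cytoplasm, was measured at 237, 142 and 141 TPM in Q7-C and 3.17, 2.89 and 1.06 in Q111-C (log2 fold change -6.58, SE 1.14, adjusted p = 0.0013 by edgeR's quasi-likelihood test), a call that DESeq2 did not make. In treated cells it was measured at 72.8, 124 and 78.3 TPM in Q7-T and at 0, 1.92 and 0 in Q111-T, where its fitted difference rests on Q111-T replicate 2 and no fold is given. Prelp was lower by -3.95 (SE 0.15, adjusted p = 1.01e-07) in nontreated and -4.71 (SE 0.16, adjusted p = 2.78e-08) in treated STHdhQ111 cells in the same edgeR test. The water channels fell by 3.86 (Aqp5) and 3.15 (Aqp1) in Q111-C vs. Q7-C and by 5.40 and 4.41 in Q111-T vs. Q7-T. Cd34, a sialomucin of progenitor and vascular cells, fell by 3.58 and 3.71, and Fmod by 3.14 and 3.11. For Prelp, Aqp5, Aqp1, Cd34 and Fmod the libraries of the lines did not overlap, with or without treatment.

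On the other side stood Cavin2, at 3.60, 6.85 and 7.92 TPM in Q7-C and 180, 166 and 193 in Q111-C (log2 fold change 4.60, SE 0.24, adjusted p = 2.32e-07 in edgeR) and at 4.33, 2.33 and 2.71 in Q7-T and 102, 83.3 and 137 in Q111-T (4.70, SE 0.24, adjusted p = 2.85e-07). Tgfbi, an adhesion protein induced by TGF-β, was measured at 6.01, 8.88 and 8.54 TPM in Q7-C, 4.91, 2.81 and 3.80 in Q7-T, 134, 149 and 148 in Q111-C and 29.1, 21 and 34.5 in Q111-T. It rose by 3.90 (SE 0.16) between the nontreated lines and by 2.47 (SE 0.15) between the treated lines. Ogn rose by 2.67 and 1.15, Mest by 2.64 and 1.78, and Enpp1, which makes extracellular pyrophosphate, by 2.52 and 2.57. Lgr6 (2.21 and 3.97), Card10, a scaffold of NF-κB signalling (2.42 and 3.19), and Dsp, the desmosomal plaque protein (2.18 and 2.77), were higher in both. Omd was the one gene that was a DEG in nontreated cells (2.22, SE 0.35, adjusted p = 0.000648 in edgeR) with the opposite sign in treated cells, where it was no DEG (-0.85, SE 0.36, adjusted p = 0.0799).

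**Figure D5:**
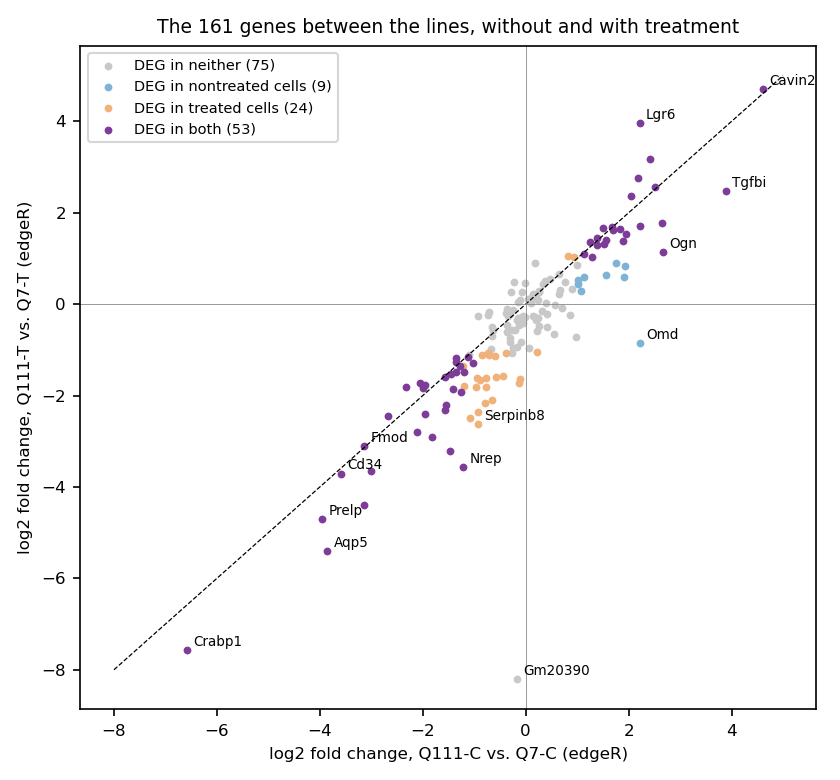
Log2 fold change between the lines (edgeR) of the 161 genes in nontreated (horizontal) and treated (vertical) cells, coloured by the comparisons in which they were DEGs (53 in both, 9 in nontreated and 24 in treated cells alone, 75 in neither); the dashed line marks equal values. Points of Omd, Nrep and Serpinb8 lie below that line and Lgr6 above it, and Gm20390, listed at 0 TPM in all 3 Q111-T libraries, is drawn at the lower edge.

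Sparc differed between the lines by -0.21 (SE 0.16, adjusted p = 0.413) in nontreated and -0.57 (SE 0.16, adjusted p = 0.0151) in treated cells in edgeR's test, neither a DEG. H1f0 differed by -0.11 (SE 0.15, adjusted p = 0.665) in nontreated cells and fell by 1.65 (SE 0.16, adjusted p = 1.56e-05) in treated STHdhQ111 cells in the same test. Peg10 differed by -0.57 (SE 0.15, adjusted p = 0.0192) in nontreated cells, under the fold limit, and fell by 1.58 (SE 0.16, adjusted p = 1.99e-05) in treated STHdhQ111 cells. Dap rose by 1.02 in nontreated cells, a call lost without Q7-C replicate 2 or 3 (0.94 without replicate 3). The 7 cholesterol genes lay between -0.36 and 0.26 in nontreated and between -0.96 and 0.29 in treated cells. The 7 histone genes lay between -1.11 and 0.22 in nontreated cells, and 5 of them were lower DEGs in treated STHdhQ111 cells, at -1.62 to -2.35. By lists, the 14 matrix genes split into 5 higher and 2 lower DEGs in nontreated cells and 3 higher and 4 lower in treated cells.

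The interaction asks whether the response to IFNγ/LPS differed between the lines, and it is built from both contrasts of the rule. Of the 161 genes, 15 passed, 14 with a more negative response in STHdhQ111 cells (1.2% of all genes tested had an interaction of that sign) and Lgr6 with a less negative one (3.52%). With no limit on the fold, 19 had an adjusted p under 0.05 by edgeR (5.7%). Since the choice demanded a low ratio in both lines, nothing is read from the shares. The 14 were Omd, Nrep, Gper1, Serpinb8, Efemp1, H1f0, Ogn, Tgfbi, Ccdc80, Klra4, Aqp1, Pdgfrb, Chst1 and Peg10. Of them, Omd, Ogn, Efemp1 and Ccdc80 are on the matrix list. Serpinb8, an intracellular protease inhibitor, was measured at 9.33, 14 and 11.4 TPM in Q7-C, 5.86, 5.57 and 5.78 in Q7-T, 7.03, 8.29 and 7.29 in Q111-C and 1.34, 1.20 and 1.26 in Q111-T. Its treated libraries were apart by line, and its nontreated libraries were closer. Omd, Nrep, Serpinb8 and H1f0 remained DEGs of the interaction under every alternative tried, while Pdgfrb, Chst1, Klra4 and Peg10 were lost in 10 to 14 of 23. The number with a more negative response in STHdhQ111 cells was 7 and 9 with limma on log2(TPM + 0.1) and (TPM + 0.5), where 1.03% and 1.2% of all genes tested were called. It was 22 without Q7-C replicate 1 and Q7-T replicate 2, an alternative chosen after seeing the data, where 2.03% were.

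Some of the genes lie near each other. There were 13 pairs of neighbours among the 161 within 200 kb, among them Omd and Ogn, Prelp and Fmod, Lad1 and Pkp1, Efna2 and Gamt, Aqp5 and Asic1, and the histone genes on chromosome 13. Chromosome 1 held 18 of the genes (3.47% of its expressed genes), chromosomes 13 and 6 held 15 each (4.17% and 3.35%), chromosome 15 held 14 (3.53%) and chromosome X held 1 (0.356%), beside 1.66% of all expressed genes. The transcripts of the 161 genes had a median length of 2055 bases, against 1320 over the expressed genes, and the library Q7-T replicate 2 had its largest deficit in long transcripts. The part of transcript length in the membership was not tested.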

How the data were processed

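Poly(A) RNA-seq was analysed in 12 libraries, 3 in each of 4 groups set by the labels. Per the submitters' processing notes the authors used cutadapt, FastQC, HISAT2, StringTie, DESeq2 and edgeR with GRCm38; versions are not given in the sources used here. The authors deposited TPM values (scaled for transcript length and library total) and StringTie's estimated counts for 29428 genes, from 57505990 to 96417834 counts a library. The rule was applied to mean TPM. Estimated counts were rounded to whole numbers and tested with edgeR 4.0.16 (quasi-likelihood, TMM scaling, 1 fit over all 12 libraries, R 4.3.3) on the 16127 genes that reached 0.5 TPM in 3 or more libraries, with Benjamini-Hochberg adjustment over all of them; DEGs had a log2 fold change of 1 or more in size and an adjusted p under 0.05. Tests were first run on simulated data. Tables were handled in Python 3.11.15.

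The members and lists were chosen with earlier results of these data known. Genes were named by rule: the smallest mean ratios, the most abundant, and the largest line differences and interactions among DEGs; other genes were named as members of a list or group, chosen after their values were seen. The alternatives were DESeq2 1.42.0, limma 3.58.1 on log2(TPM + a pseudocount of 0.1, 0.5 or 1), other scalings and filters, the replicate block, other limits of the rule and each library left out. With 3 against 3 libraries an exact permutation test cannot go below p = 0.1, so none is given. Promoters came from RefSeq windows of GRCm38.p6. Some items are not reported here.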

Additional observations from a re-analysis of the deposited data

Results flagged for a closer look

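The response to IFNγ/LPS differed between STHdhQ111 and STHdhQ7 cells for 15 of the 161 genes by edgeR's quasi-likelihood test of the interaction of line and treatment, and each value below is the log2 response in STHdhQ111 cells minus that in STHdhQ7 cells. Since both responses chose the genes, the values are a description. Omd had the lowest at -3.08 (SE 0.50, adjusted p = 0.00436 in edgeR), followed by Nrep at -2.35 (SE 0.31, adjusted p = 0.0015 in edgeR). Gper1 had -1.74 and Serpinb8 -1.69. Efemp1 had -1.61, Ogn -1.53, Tgfbi -1.42 and Ccdc80 -1.38. The linker histone H1f0 had -1.53 and the water channel Aqp1 -1.26. Klra4 had -1.27, Pdgfrb -1.20, Chst1 -1.09 and Peg10 -1.02, and these 4 calls were lost under many alternatives. Lgr6 was the one gene of the 15 with a smaller response in STHdhQ111 cells, at 1.75 (SE 0.35, adjusted p = 0.0126 in edgeR), from treated STHdhQ7 levels of 0.252 to 0.344 TPM; it was 0.83 and 0.41 with limma on log2(TPM + 0.5) and (TPM + 1), where the call was lost.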

How the results depend on the processing

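The number of genes that met the rule was 64 with a ratio of at most 0.5, 410 with at most 0.7 and 99 after rescaling by the median of ratios, and it ranged from 109 (without Q7-T replicate 2) to 228 (without Q7-C replicate 1) with 1 library left out. Lower DEGs in Q111-C vs. Q7-C numbered 19, 19 and 17 with limma on log2(TPM + 0.1), (TPM + 0.5) and (TPM + 1). Of all genes tested 5.49%, 4.75% and 3.67% were, beside 7.61% by edgeR. Those in Q111-T vs. Q7-T numbered 33, 32 and 27, where 5.92%, 4.81% and 3.87% of all genes tested were, beside 11.2% by edgeR. Fitted on the 2 groups compared alone, lower DEGs in Q7-T vs. Q7-C numbered 24, where 0.484% of all genes tested were, beside 1.11% in the main fit. Interactions with a more negative response in STHdhQ111 cells numbered 7 and 9 with limma at 0.1 and 0.5 (1.03% and 1.2% of all genes tested). They numbered 22 (2.03%) without Q7-C replicate 1 and Q7-T replicate 2, an alternative chosen after seeing the data. The single one of opposite sign became 0 with limma at 0.5, where 4.01% of all genes tested had that sign. The causes were not tested. With 1 library left out, the counts ranged from 42 to 56 (treated STHdhQ7 cells, lower), 91 to 106 (treated STHdhQ111 cells, lower), 29 to 33 and 28 to 32 (Q111-C vs. Q7-C, higher and lower), 22 to 25 and 48 to 53 (Q111-T vs. Q7-T, higher and lower) and 10 to 20 (interaction, more negative). Counts have no sign, so a reversal does not apply to them. Of the single-gene fold changes between lines and of the interaction that were recomputed, none changed sign. The median of the chosen genes between the lines did. In Q111-C vs. Q7-C it was -0.127 by edgeR and 0.236 with limma on log2(TPM + 0.5), beside -0.02 and 0.27 over all genes tested. In Q111-T vs. Q7-T it was -0.337 and 0.084, beside -0.03 and 0.34. Calls of 22 of 52 genes in Q7-T vs. Q7-C, 70 of 103 in Q111-T vs. Q111-C, 41 of 62 in Q111-C vs. Q7-C, 46 of 77 in Q111-T vs. Q7-T and 4 of 15 in the interaction were kept under all alternatives run.

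Whether replicate numbers pair the samples cannot be settled with 3 libraries a group. Of 18 pairs of groups and numbers, 7 had a correlation of deviations above 0.1, and the 18 ranged from -0.64 to 0.47. With the replicate number as a block, 49 genes were lower DEGs in treated STHdhQ7 cells (0.893% of all genes tested). In Q111-C vs. Q7-C 33 were higher (7.21%) and 30 lower (7.15%), and in Q111-T vs. Q7-T 25 were higher (12.9%) and 52 lower (10.5%). A more negative interaction was called for 13 (0.98%).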
